A study of Mus musculus with 21 samples.

Results

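The Wnt pathway genes described here are 47 ligands, receptors, signal transducers, inhibitors and target genes, listed by name. They were found by matching those names to the rows of the deposited gene table, and 46 of the 47 were found among its 23713 genes. Expression of Sp5, a target gene, is not analysed here. RNA was sequenced from keratinocytes, the epithelial cells of the epidermis, prepared from the tail skin of 3 mouse models of basal cell carcinoma (BCC). Each model had 3 control libraries from epidermis without tumour (Con) and 4 libraries from tumour-bearing mice (BCC), 21 libraries in all. In the model named SmoM2, after an activated form of the Hedgehog pathway protein Smoothened, tumours had been induced 29 days before the cells were prepared. In Gnas-eKO, named for a knockout of Gnas, the gene of the stimulatory G protein alpha subunit, this was 42 days. In PKI, a name used for a peptide inhibitor of protein kinase A that the labels do not spell out, it was 57 days. The labels give no driver, allele, strain, sex or age for any group, and they do not say whether Con mice carried part of the alleles. BCC was compared with Con within a model, because the batch label (A, B or C) follows the model, and model, day and batch cannot be told apart.

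Wnt proteins are secreted signals that receive a lipid in the producing cell from the enzyme Porcn and bind Frizzled receptors with the co-receptors Lrp5 and Lrp6. Binding stops the complex of Apc and Axin from destroying beta-catenin, the product of Ctnnb1, which then enters the nucleus and switches on target genes with factors of the TCF/LEF family. Several targets are themselves brakes on the pathway, among them Axin2, Nkd1, Notum, Rnf43 and Znrf3. In skin, Wnt signalling is known for its part in the formation and cycling of hair follicles.

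Library totals ranged from 16645858 to 22251132 counts, and all 46 genes passed the filter on low counts in every model. The 8 keratinocyte markers summed to 26800 to 70200 CPM (a gene's count relative to all counts of its library) over the 21 libraries. Ptch1, a Hedgehog target, was at most 42.9 CPM in Con and ranged from 209 to 1060 CPM in BCC over the models. Gli1, another Hedgehog target, ranged from 252 to 294 CPM in SmoM2 BCC and from 66.1 to 104 CPM in PKI BCC, above at most 16.6 CPM in Con, but from 9.65 to 281 CPM in Gnas-eKO BCC, whose lowest library lay within the 4.75 to 9.96 CPM of its Con. Gnas measured 172 to 178 CPM in Gnas-eKO Con and 51.1 to 115 CPM in Gnas-eKO BCC, and Smo 93.7 to 111 CPM in SmoM2 Con and 283 to 312 CPM in SmoM2 BCC. Smo was also higher in BCC without overlap in the other models, at 150 to 234 CPM beside 106 to 113 CPM in Gnas-eKO and 138 to 161 CPM beside 98.1 to 113 CPM in PKI. The PKI label could not be checked on a transcript, since the construct is not described. Gnas-eKO BCC replicate 2 stood apart from its group on the first principal component of all genes. It lay at -15.4, where the other 3 lay between 39.6 and 41.1. A chi-square of counts was also taken between pairs of that group, divided by its degrees of freedom. Pairs with replicate 3 gave the highest values, 122 to 196, and the others gave 26.8 to 90.5. Where leaving out replicate 2 changed the Gnas-eKO call of a member, the value without it is given. In the file headers, animal names of SmoM2 BCC begin with other letters than those of SmoM2 Con. The meaning of the letters is not given, and for SmoM2 whatever they mark cannot be told apart from the tumour. Each library has its own animal name in the headers, and nothing else in the labels says whether libraries of a group came from separate animals. The p-values set a difference against the spread between these libraries.

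Of the 46 Wnt pathway genes in the table, 29 differed between BCC and Con in SmoM2, 21 in PKI and 4 in Gnas-eKO. A gene was called when its adjusted p was under 0.05 in edgeR's quasi-likelihood test with Benjamini-Hochberg adjustment over all genes tested. In SmoM2, 18 of 46 members were higher in BCC and 11 lower, which is 63% called. Of all 16370 genes tested, 29.7% were called, 16.2% higher and 13.5% lower. In PKI, 13 were higher and 8 lower, which is 45.7% called beside 34.5% of 16397 genes, 18.7% higher and 15.8% lower. In Gnas-eKO, 4 were higher and 0 lower by edgeR, which is 8.7% called beside 1.63% of 16409 genes, 1.46% higher and 0.165% lower. There 22 members had an unadjusted p under 0.05 in either direction, beside 19.6% of all genes, and DESeq2 called 11 higher and 4 lower, beside 6.8% and 2.58% of 16376 genes. Without Gnas-eKO BCC replicate 2, edgeR called 14 members higher and 5 lower, beside 11.8% of all genes, 7.36% higher and 4.43% lower. A joint fit of all 21 libraries, which shares 1 estimate of the spread, called 15 higher and 5 lower in Gnas-eKO, beside 14.9% of all genes, 8.89% higher and 6.05% lower. Fitted on Gnas-eKO alone without any 1 of its 3 Con replicates, edgeR called 0. It called 1 without BCC replicate 1, 4 without BCC replicate 3 and 2 without BCC replicate 4. The shares of all genes called in these fits were not computed, so these counts do not show a change particular to the members. The median log2 fold change over the 46 members was 0.19 in SmoM2, 0.02 in PKI and 0.22 in Gnas-eKO, against 0, 0 and 0.02 over all genes tested.

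All BCC libraries lay above all Con libraries for 20 members in SmoM2, beside 19.6% of all genes, and below them for 12, beside 19.2%. In PKI, 13 members lay above without overlap, beside 22.4%, and 9 below, beside 20.8%. In Gnas-eKO the numbers were 12 above, beside 9.98%, and 5 below, beside 9.7%.

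By role in SmoM2, edgeR called 2 of 11 ligands higher and 6 lower, 5 of 13 receptors higher and 3 lower, all 4 TCF/LEF factors higher, 2 of 6 inhibitors higher and 1 lower, and 1 of 5 target genes higher and 1 lower. Each gene was counted in 1 role. The target genes counted here are the feedback genes Axin2, Nkd1, Nkd2, Rnf43 and Znrf3, and Notum was counted as an inhibitor. For PKI the counts were 4 ligands higher and 3 lower, 3 receptors higher and 0 lower, 2 TCF/LEF factors higher, 3 inhibitors lower and 2 target genes lower. As shares called, these were 72.7%, 61.5%, 100%, 50% and 40% in SmoM2 beside 29.7% of all genes, and 63.6%, 23.1%, 50%, 50% and 40% in PKI beside 34.5%, which the receptor share did not reach. In both models 2 of 3 receptors of R-spondins (66.7%), 1 of 3 transducers (33.3%) and Porcn were also called higher. The 4 Gnas-eKO calls were 2 ligands, 1 receptor and 1 receptor of R-spondins, with 0 TCF/LEF factors, inhibitors or target genes. Wnt6, Wnt7b and Lgr5 were called higher in all 3 models, where 0.902% of the 15640 genes tested in every model were. By edgeR 0 members were called lower in all 3, beside 0.0767% of all genes. DESeq2 called 8 higher in all 3, which were Ctnnb1, Fzd2, Lef1, Lgr4, Lgr5, Porcn, Wnt6 and Wnt7b, beside 3.15% of 15596 genes, and 1 lower, Wnt3, beside 1.24%. The joint fit called 6 in the same direction in all 3, beside 4.09% of 17695 genes. By edgeR, 34 members were called in at least 1 model, as were 50.6% of all genes, and 1, Apcdd1, was called in opposite directions in SmoM2 and PKI. SmoM2 and PKI, which share no library, called 15 members in the same direction, 51.7% of the SmoM2 calls and 71.4% of the PKI calls among members. Over the 15772 genes tested in both models, 10.7% were called in the same direction, 36.2% of the SmoM2 calls and 31.6% of the PKI calls, and 2.3% in opposite directions.

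**Figure D1:**
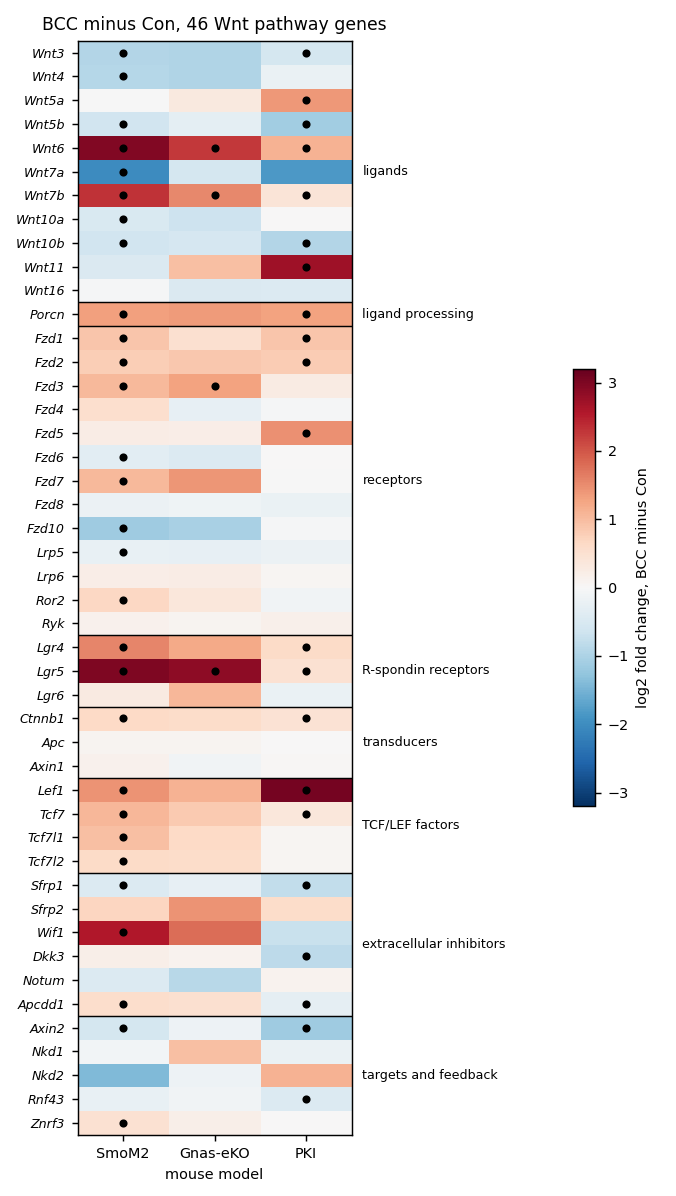
Log2 fold change of BCC against Con for 46 Wnt pathway genes (rows, by role) in each model (columns); red is higher and blue lower in BCC, and a dot marks an edgeR adjusted p under 0.05. The SmoM2 column holds 29 dots, the Gnas-eKO column 4 and the PKI column 21.

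Summed keratinocyte markers were lower in BCC without overlap in SmoM2, at 34500 to 49500 CPM beside 50200 to 66800 CPM in Con, and in Gnas-eKO, at 26800 to 45600 CPM beside 51800 to 63200 CPM. In PKI they overlapped, at 42700 to 70200 CPM in BCC and 46600 to 63900 CPM in Con. Of the 8, SmoM2 had 2 called higher and 3 lower, Gnas-eKO 0, and PKI 2 higher and 2 lower. Most of each sum was the keratins Krt5, Krt14 and Krt10. In SmoM2, Trp63 went from 711 to 744 CPM in Con to 916 to 1180 CPM in BCC. Dsg3 went from 331 to 473 CPM to 557 to 613 CPM there, and Cdh1 overlapped. Markers of other cells also differed between the groups. Of the fibroblast markers, 3 of 7 tested were higher in SmoM2 BCC, and the summed level of all 8 went from 17.3 to 39.9 CPM in Con to 388 to 526 CPM in BCC. Most of that was Dcn, which measured 362 to 500 CPM in SmoM2 BCC, and the other 7 summed to 3.58 to 12.1 CPM in Con and 12.6 to 27.0 CPM in BCC. In Gnas-eKO the 8 summed to 16.3 to 27.9 CPM in Con and 95.4 to 579 CPM in BCC, and to 4.61 to 8.63 and 10.1 to 92.4 CPM without Dcn, and 1 of 7 tested was called higher. In PKI they summed to 15.9 to 44.2 CPM in Con and 85.0 to 146 CPM in BCC, and to 2.78 to 16.0 and 17.3 to 46.2 CPM without Dcn, and 3 of 6 tested were called higher. Col1a2, a collagen gene, went from 1.19 to 3.25 CPM in SmoM2 Con to 7.66 to 22.1 CPM in SmoM2 BCC, while Pdgfra, a receptor of fibroblasts, was at most 1.20 CPM in every group and was called in no model. Leukocyte markers rose in PKI, where 7 of 9 were called and their sum went from 44.3 to 109 CPM to 234 to 451 CPM, mostly Cd74. In SmoM2, 1 of 8 tested was called higher and 1 lower, with overlapping sums of 69.0 to 85.9 CPM in Con and 46.6 to 97.1 CPM in BCC, and in Gnas-eKO 0 of 8 were called, with sums of 88.3 to 113 CPM in Con and 73.8 to 219 CPM in BCC. Of 6 melanocyte markers, 4 were lower in PKI, where their sum went from 156 to 204 CPM in Con to 73.5 to 120 CPM in BCC, 2 were lower in SmoM2 and 0 were called in Gnas-eKO, both with overlapping sums. The 7 endothelial markers stayed at or under 18.2 CPM in sum. They went from 2.99 to 3.62 CPM in Con to 7.86 to 12.5 CPM in BCC in SmoM2, where 3 of 4 tested were called higher, and from 2.72 to 6.23 CPM to 6.97 to 18.2 CPM in PKI, where 1 of 3 was. In Gnas-eKO, 1 of 4 was called higher, with sums of 3.18 to 6.34 CPM in Con and 5.90 to 15.8 CPM in BCC. Hair follicle markers summed to 2590 to 3340 CPM over the Con groups, and to 6970 to 8680 CPM in SmoM2 BCC, 3630 to 7660 CPM in Gnas-eKO BCC and 5140 to 8400 CPM in PKI BCC. Most of each sum was the keratins Krt17 and Krt79. In SmoM2, Krt17 went from 1010 to 1420 CPM in Con to 5080 to 5700 CPM in BCC. Krt79 overlapped there, at 1060 to 1410 and 1180 to 2150 CPM, and Foxn1 went from 64.8 to 105 CPM to 22.5 to 29.9 CPM. Of the 9 hair follicle markers, 4 were called higher and 1 lower in SmoM2, 0 were called in Gnas-eKO, and 7 were higher in PKI. In bulk RNA, a change in the number of cells of a type and a change in RNA per cell cannot be told apart. The part of these markers in the changes below was not tested.

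Among ligands, Wnt4 was the highest in control epidermis and Wnt7b the one whose level per length rose most in SmoM2 tumours. On the scale of CPM per kilobase of exon (GENCODE M21), the median over the 9 Con libraries was 48.6 for Wnt4, 27.5 for Wnt10a, 21.2 for Wnt3, 11.3 for Wnt7b and 5.82 for Wnt10b. The other 6 ligands had medians from 0.441 to 2.94. The ranges of Wnt10a, 21.4 to 28.8, and Wnt3, 19.2 to 27.0, overlapped, while Wnt4, at 43.6 to 54.1, lay above both in every library.

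Wnt7b and Wnt6, both known as ligands made by epithelium, were higher in BCC in each model. Wnt7b in SmoM2 measured 50.3, 51.5 and 58.6 CPM in Con and 280, 262, 249 and 250 CPM in BCC (log2 fold change 2.30, SE 0.08, edgeR adjusted p = 1.94e-07). In Gnas-eKO it measured 57.5, 50.2 and 52.2 CPM in Con and 116, 181, 115 and 198 CPM in BCC (log2 fold change 1.53, SE 0.22, edgeR adjusted p = 0.0233). The PKI libraries gave 55.5, 67.1 and 56.5 CPM in Con and 74.8, 72.5, 82.2 and 81.9 CPM in BCC (log2 fold change 0.40, SE 0.09, edgeR adjusted p = 0.0101). All BCC libraries of each model lay above all their Con libraries. The fold was 1.32 in PKI, and the difference between the PKI and SmoM2 effects passed the test (-1.90, SE 0.12, edgeR adjusted p = 2.73e-07). Leaving out any 1 of the 3 Gnas-eKO Con replicates ended the Gnas-eKO call of Wnt7b, with adjusted p from 0.142 to 0.16, and the joint fit ended its PKI call, with an adjusted p of 0.0649.

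Wnt6 in SmoM2 measured 2.99, 2.47 and 6.6 CPM in Con and 34.4, 34.3, 26.2 and 28.5 CPM in BCC (log2 fold change 2.96, SE 0.33, edgeR adjusted p = 0.000472). In Gnas-eKO its levels were 4.56, 5.48 and 3.47 CPM in Con and 22, 14.4, 14.4 and 34.7 CPM in BCC (log2 fold change 2.26, SE 0.36, edgeR adjusted p = 0.0302). PKI libraries gave 6.99, 2.59 and 3.18 CPM in Con and 9.24, 7.69, 8.81 and 11.2 CPM in BCC (log2 fold change 1.12, SE 0.32, edgeR adjusted p = 0.025). BCC again lay above Con in every library of each model, although Con replicate 3 of SmoM2 and Con replicate 1 of PKI were about the level of the lowest PKI BCC library. The Gnas-eKO call was lost without Con replicate 1, 2 or 3 or BCC replicate 1, with adjusted p up to 0.159, or with sex as a covariate (0.0585), and the PKI call without Con replicate 2 or 3 or BCC replicate 1 or 4, with adjusted p up to 0.092. The rise was smaller in PKI than in SmoM2 (-1.85, SE 0.48, edgeR adjusted p = 0.0149). Wnt6 lies on chromosome 1 (mm10 chr1:74771892-74785322), and its neighbour Wnt10a begins 6193 bases further on the same strand with no gene between them.

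Wnt10a, Wnt4 and Wnt3, the 3 highest ligands of control epidermis, went the other way in SmoM2. Wnt10a measured 71, 59.3 and 52.7 CPM in Con and 40.9, 41, 44 and 44.4 CPM in BCC in SmoM2 (log2 fold change -0.50, SE 0.10, edgeR adjusted p = 0.0043). Its Gnas-eKO levels were 66.2, 57 and 67.8 CPM in Con and 30.8, 44.9, 37.7 and 45.9 CPM in BCC (log2 fold change -0.67, SE 0.15, edgeR adjusted p = 0.0692). Without Gnas-eKO BCC replicate 2, Wnt10a was called lower there, at -0.73 with an SE of 0.17 and an edgeR adjusted p of 0.0302. In PKI it measured 69.2, 70.7 and 69.4 CPM in Con and 74.2, 72.7, 70.3 and 58.9 CPM in BCC (log2 fold change 0.00, SE 0.09, edgeR adjusted p = 0.984). BCC and Con did not overlap in SmoM2 or Gnas-eKO and overlapped in PKI, so that in SmoM2 the neighbours Wnt6 and Wnt10a moved in opposite directions. The PKI effect on Wnt10a differed from the SmoM2 effect (0.50, SE 0.14, edgeR adjusted p = 0.0168).

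Wnt4 measured 216, 183 and 227 CPM in Con and 104, 103, 111 and 118 CPM in BCC in SmoM2 (log2 fold change -0.92, SE 0.08, edgeR adjusted p = 4.49e-05). In Gnas-eKO the values were 201, 210 and 185 CPM in Con and 80.8, 153, 82.1 and 87.2 CPM in BCC (log2 fold change -0.97, SE 0.23, edgeR adjusted p = 0.0735). PKI gave 204, 212 and 190 CPM in Con and 184, 197, 158 and 148 CPM in BCC (log2 fold change -0.22, SE 0.11, edgeR adjusted p = 0.14). In SmoM2 and Gnas-eKO all BCC libraries lay below Con, with Gnas-eKO BCC replicate 2 nearest to it, and without that library the Gnas-eKO adjusted p was 0.000959. The fall of Wnt4 in SmoM2 was larger than the change in PKI (0.70, SE 0.14, edgeR adjusted p = 0.00275).

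Wnt3 measured 62.5, 67.5 and 83.1 CPM in Con and 36.3, 39.9, 31.2 and 39.4 CPM in BCC in SmoM2 (log2 fold change -0.94, SE 0.12, edgeR adjusted p = 0.000328). In Gnas-eKO it was 59.1, 76.9 and 65.2 CPM in Con and 27.8, 55.8, 30.4 and 22.5 CPM in BCC (log2 fold change -0.97, SE 0.28, edgeR adjusted p = 0.117). Its PKI values were 66.9, 63.5 and 63.7 CPM in Con and 47, 37.2, 56.8 and 33.1 CPM in BCC (log2 fold change -0.56, SE 0.17, edgeR adjusted p = 0.0294). BCC lay below Con in each model without overlap. The PKI call was lost without any 1 of the Con replicates or BCC replicate 2, with adjusted p up to 0.0761, and in the joint fit, and without Gnas-eKO BCC replicate 2 the adjusted p in that model was 0.0028.

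Wnt10b, a ligand of hair follicle growth, was 19.8, 16.5 and 12.1 CPM in Con and 9.95, 9.37, 11 and 11.6 CPM in BCC in SmoM2 (log2 fold change -0.61, SE 0.17, edgeR adjusted p = 0.0218). Gnas-eKO gave 9.17, 11.8 and 22.7 CPM in Con and 9.14, 15, 5.99 and 9.52 CPM in BCC (log2 fold change -0.55, SE 0.37, edgeR adjusted p = 0.465). In PKI its levels were 23.4, 25.6 and 30.6 CPM in Con and 7.86, 14.1, 17.3 and 15.1 CPM in BCC (log2 fold change -0.95, SE 0.24, edgeR adjusted p = 0.0157). BCC was below Con in SmoM2 and PKI and overlapped with it in Gnas-eKO. The SmoM2 call was lost without Con replicate 1 or 2 or BCC replicate 1 or 2, with adjusted p up to 0.0818, and in the joint fit with 0.157, and the PKI call without Con replicate 3, with an adjusted p of 0.0608.

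Wnt5b measured 8.13, 6.83 and 7.79 CPM in Con and 4.52, 5.17, 5.56 and 4.48 CPM in BCC in SmoM2 (log2 fold change -0.61, SE 0.15, edgeR adjusted p = 0.0146). Its Gnas-eKO values were 6.54, 8.83 and 8.69 CPM in Con and 6.09, 10.2, 3.53 and 5.85 CPM in BCC (log2 fold change -0.31, SE 0.33, edgeR adjusted p = 0.662). PKI libraries gave 9.88, 6.88 and 7.39 CPM in Con and 4.16, 3.82, 3.87 and 2.96 CPM in BCC (log2 fold change -1.11, SE 0.19, edgeR adjusted p = 0.00269). The fall held in every BCC library of SmoM2 and PKI, and Gnas-eKO groups overlapped. The joint fit ended the SmoM2 call of Wnt5b. Wnt7a, at 1.20 to 2.48 CPM in SmoM2 Con and 0.362 to 0.648 CPM in SmoM2 BCC, was lower there (log2 fold change -2.02, SE 0.37, edgeR adjusted p = 0.00277). Wnt16, at 2.36 to 11.2 CPM over all libraries, was called in no model.

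Wnt11 and Wnt5a, ligands best known for signalling that does not use beta-catenin, rose in PKI. Wnt11 in PKI measured 2.89, 3.41 and 1.68 CPM in Con and 18.6, 17.9, 15.5 and 17.6 CPM in BCC (log2 fold change 2.72, SE 0.22, edgeR adjusted p = 8.81e-05). In SmoM2 it was 3.22, 3.9 and 4.22 CPM in Con and 1.99, 2.99, 3.06 and 2.77 CPM in BCC (log2 fold change -0.47, SE 0.22, edgeR adjusted p = 0.143). Gnas-eKO gave 2.58, 3.3 and 2.66 CPM in Con and 7.66, 4.18, 6.37 and 3.67 CPM in BCC (log2 fold change 0.95, SE 0.31, edgeR adjusted p = 0.15). The 4 PKI BCC libraries lay above every other library of the series. BCC also lay above Con in Gnas-eKO and below Con in SmoM2 without overlap. In the joint fit Wnt11 was called higher in Gnas-eKO (0.94, SE 0.25, edgeR adjusted p = 0.0166). The PKI effect on Wnt11 exceeded that in SmoM2 (3.19, SE 0.30, edgeR adjusted p = 1.12e-05) and that in Gnas-eKO (1.77, SE 0.38, edgeR adjusted p = 0.0135).

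Wnt5a in PKI measured 11.5, 14.7 and 13.6 CPM in Con and 37, 30.8, 34 and 37.4 CPM in BCC (log2 fold change 1.40, SE 0.12, edgeR adjusted p = 0.000109). In SmoM2 the levels were 5.42, 9.35 and 8.06 CPM in Con and 5.92, 6.95, 9.26 and 7.46 CPM in BCC (log2 fold change -0.02, SE 0.22, edgeR adjusted p = 0.954). Its Gnas-eKO levels were 6.94, 10.3 and 8.89 CPM in Con and 13.7, 8.26, 12.5 and 8.41 CPM in BCC (log2 fold change 0.31, SE 0.25, edgeR adjusted p = 0.543). PKI BCC was again above every other library, and Con and BCC overlapped in SmoM2 and Gnas-eKO. The PKI effect was larger than in SmoM2 (1.43, SE 0.25, edgeR adjusted p = 0.0011) and Gnas-eKO (1.10, SE 0.27, edgeR adjusted p = 0.0237), the second of which was lost without Gnas-eKO Con replicate 2 or PKI Con replicate 1 or 3, with adjusted p up to 0.0756. Exons of Wnt5a overlap those of Gm2670 on the other strand, and whether counting used the strand is not stated. The same holds for Wnt7b with AU022754.

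Promoters of the 29 listed members found in RefSeq (GRCm38.p6) were searched for the TCF/LEF core ATCAAAG, which reads CTTTGAT on the other strand. Of 39 windows of 300 bases, from 250 before to 50 after a transcript start, 3 held it, which is 7.69%, where 3.73% of all 32851 windows did. The 3 belong to Wnt11, Wnt5b and Sp5. The GLI consensus GACCACCCA, or TGGGTGGTC, was found in 0 of the 39 windows and in 0.253% of all. The 250 bases before the start are shown for the ligands with a match, which moved in opposite directions in PKI, 5′ to 3′, with the match in capitals. For Wnt11 they are chr7:98834862-98835111 on the plus strand, with the match beginning 51 bases before the start of the gene, and for Wnt5b chr6:119449387-119449636 on the minus strand, beginning 71 bases before the start of a shorter transcript inside the gene.
Wnt11: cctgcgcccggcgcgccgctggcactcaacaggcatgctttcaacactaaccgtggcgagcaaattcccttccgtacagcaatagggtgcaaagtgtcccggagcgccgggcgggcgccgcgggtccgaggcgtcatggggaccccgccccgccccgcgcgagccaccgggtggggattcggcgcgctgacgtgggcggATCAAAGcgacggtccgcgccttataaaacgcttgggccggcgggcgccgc
Wnt5b: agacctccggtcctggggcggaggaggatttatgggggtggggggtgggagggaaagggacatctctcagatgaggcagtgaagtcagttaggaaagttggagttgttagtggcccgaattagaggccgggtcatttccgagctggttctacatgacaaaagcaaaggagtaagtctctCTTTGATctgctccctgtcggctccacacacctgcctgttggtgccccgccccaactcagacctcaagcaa
These matches are letters in a window and not measured sites.

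**Figure D2:**
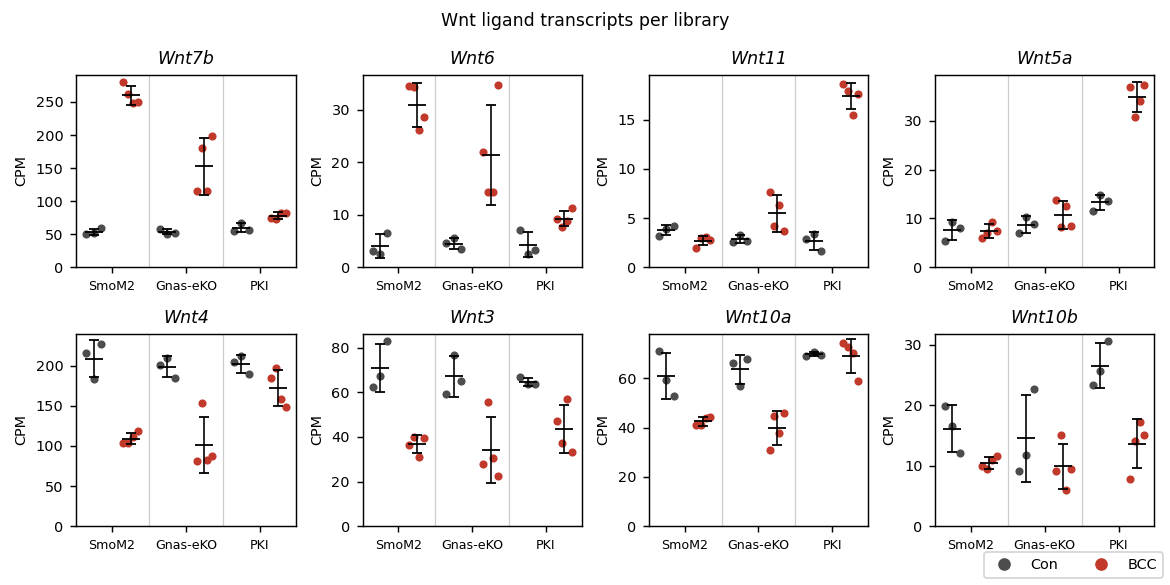
CPM of 8 Wnt ligands in each library, Con in grey and BCC in red, with the mean and SD of each group in black; each panel has its own axis from 0. Wnt7b and Wnt6 are higher in BCC of every model, Wnt11 and Wnt5a stand out in PKI BCC, and Wnt4, Wnt3 and Wnt10a are lower in SmoM2 BCC.

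The ligands differed in their shares of the ligand transcripts. In SmoM2, all 11 together summed to 125, 113 and 128 CPM per kilobase in Con and 134, 131, 126 and 131 in BCC. In Gnas-eKO that sum was 117, 123 and 119 in Con and 84.9, 129, 82.7 and 111 in BCC, where 3 of 4 libraries lay below Con. In PKI it was 128, 129 and 123 in Con and 122, 122, 122 and 108 in BCC, below Con in each. The share of Wnt4 in that sum was 40.7% ± 1.83 in SmoM2 Con (SD, n = 3) and 19.9% ± 1.54 in BCC (SD, n = 4). The share of Wnt7b was 8.96% ± 0.66 in SmoM2 Con and 40.7% ± 1.52 in BCC. In SmoM2 BCC, Wnt7b was thus the ligand with the highest level per length. In Gnas-eKO the share of Wnt7b was 9.12% ± 0.876 in Con and 30.3% ± 4.01 in BCC, and in PKI 9.6% ± 0.907 and 13.5% ± 1.52. In PKI, Wnt4 remained the highest ligand, with a share of 37.9% ± 1.14 in Con and 34.5% ± 3.32 in BCC. These shares are descriptions and were not tested.

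Porcn, the enzyme that adds the lipid to Wnt proteins, was higher in SmoM2 and PKI by log2 fold changes that differed by less than their standard errors. In SmoM2 it measured 16.8, 18 and 16.2 CPM in Con and 42.3, 41, 42.6 and 39.2 CPM in BCC (log2 fold change 1.30, SE 0.08, edgeR adjusted p = 4.98e-06). PKI gave 18, 17.7 and 18.5 CPM in Con and 48.6, 41.1, 40.9 and 44 CPM in BCC (log2 fold change 1.29, SE 0.09, edgeR adjusted p = 5.85e-05). Its Gnas-eKO levels were 22.3, 16.6 and 17.7 CPM in Con and 42.7, 24.7, 72.3 and 51 CPM in BCC (log2 fold change 1.35, SE 0.32, edgeR adjusted p = 0.0784). BCC lay above Con in every library. Without Gnas-eKO BCC replicate 2, the lowest of its group, the Gnas-eKO adjusted p was 0.00459. The difference between PKI and SmoM2 effects on Porcn was -0.01, SE 0.11, edgeR adjusted p = 0.959.

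Among receptors in control epidermis, Fzd6 was the highest per length, with a median of 34.9 CPM per kilobase over 9 Con libraries, followed by Fzd10 at 29.5 and Ryk at 29.3. The ranges of Fzd6, 31.1 to 39.4, and Fzd10, 25.7 to 33.2, overlapped.

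Fzd1 and Fzd2 rose by similar amounts in SmoM2 and PKI. Fzd1 was 72.6, 71.4 and 87.6 CPM in Con and 136, 171, 133 and 129 CPM in BCC in SmoM2 (log2 fold change 0.89, SE 0.12, edgeR adjusted p = 0.000423). In PKI it measured 93.3, 69 and 74.9 CPM in Con and 151, 139, 150 and 140 CPM in BCC (log2 fold change 0.89, SE 0.10, edgeR adjusted p = 0.000398). Gnas-eKO values were 93.3, 97.1 and 86.4 CPM in Con and 139, 146, 89.9 and 144 CPM in BCC (log2 fold change 0.50, SE 0.18, edgeR adjusted p = 0.173). BCC was above Con in SmoM2 and PKI, while Gnas-eKO groups overlapped through BCC replicate 3. Fzd2 was 16.3, 14.6 and 18 CPM in Con and 25.5, 26.7, 28.4 and 30.5 CPM in BCC in SmoM2 (log2 fold change 0.78, SE 0.11, edgeR adjusted p = 5e-04). The PKI libraries held 23.6, 19.5 and 18.1 CPM in Con and 41.2, 30.8, 32.7 and 38.8 CPM in BCC (log2 fold change 0.82, SE 0.13, edgeR adjusted p = 0.0018). In Gnas-eKO they held 16.4, 21.3 and 20.5 CPM in Con and 50.4, 20.6, 34 and 35.2 CPM in BCC (log2 fold change 0.86, SE 0.27, edgeR adjusted p = 0.138). Again the groups overlapped in Gnas-eKO alone of the 3 models, through BCC replicate 2, without which the adjusted p was 0.0125.

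Fzd7 and Fzd3 were higher in SmoM2 and not called in PKI. Fzd7 was 107, 103 and 99.1 CPM in Con and 190, 186, 236 and 226 CPM in BCC in SmoM2 (log2 fold change 1.04, SE 0.09, edgeR adjusted p = 4.36e-05). In Gnas-eKO it was 90.8, 97.7 and 111 CPM in Con and 356, 130, 258 and 304 CPM in BCC (log2 fold change 1.41, SE 0.31, edgeR adjusted p = 0.0622). PKI gave 136, 127 and 132 CPM in Con and 133, 112, 127 and 144 CPM in BCC (log2 fold change -0.02, SE 0.09, edgeR adjusted p = 0.868). The PKI effect was smaller than in SmoM2 (-1.06, SE 0.13, edgeR adjusted p = 0.000107) and Gnas-eKO (-1.42, SE 0.33, edgeR adjusted p = 0.0197), the second of which was lost without Gnas-eKO Con replicate 1 or 2, with adjusted p up to 0.0564. Without Gnas-eKO BCC replicate 2 the difference in that model had an adjusted p of 0.00121.

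Fzd3, which is also known from planar cell polarity, was 16.8, 16.7 and 16 CPM in Con and 29.1, 30, 38.7 and 36 CPM in BCC in SmoM2 (log2 fold change 1.03, SE 0.12, edgeR adjusted p = 0.000167). Gnas-eKO libraries gave 18, 14.3 and 18 CPM in Con and 51.1, 24.2, 41.7 and 44.9 CPM in BCC (log2 fold change 1.28, SE 0.25, edgeR adjusted p = 0.0484). In PKI the values were 17.8, 15 and 19.3 CPM in Con and 19.3, 18.3, 22.1 and 23.7 CPM in BCC (log2 fold change 0.27, SE 0.13, edgeR adjusted p = 0.133). BCC lay above Con in SmoM2 and Gnas-eKO and overlapped with it in PKI. The Gnas-eKO call was lost in 6 of 7 fits that left out 1 library, that is without any replicate but BCC replicate 2, with adjusted p up to 0.218, and with sex as a covariate, at 0.0726. The PKI effect was smaller than the SmoM2 effect (-0.76, SE 0.17, edgeR adjusted p = 0.00637).

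Fzd5 rose in PKI, where it measured 27.5, 21.8 and 22.7 CPM in Con and 68.3, 64.7, 56.8 and 70.4 CPM in BCC (log2 fold change 1.45, SE 0.11, edgeR adjusted p = 8.15e-05). In SmoM2 it was 29.2, 23.1 and 31.5 CPM in Con and 32.5, 35.8, 35.1 and 27.4 CPM in BCC (log2 fold change 0.24, SE 0.13, edgeR adjusted p = 0.195). Gnas-eKO gave 30.7, 28.8 and 25 CPM in Con and 46.4, 30, 22.3 and 29.8 CPM in BCC (log2 fold change 0.20, SE 0.23, edgeR adjusted p = 0.688). Only in PKI did the BCC libraries lie apart from Con, and the effect there exceeded that in SmoM2 (1.21, SE 0.18, edgeR adjusted p = 0.000348) and in Gnas-eKO (1.25, SE 0.27, edgeR adjusted p = 0.0139). Exons of Fzd5 overlap those of Gm38058 on the other strand.

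Fzd10 and Fzd6, the highest Frizzleds of control epidermis, were lower in SmoM2. Fzd10 was 93.7, 96 and 104 CPM in Con and 40.2, 49.2, 43.4 and 42.4 CPM in BCC in SmoM2 (log2 fold change -1.14, SE 0.08, edgeR adjusted p = 1.07e-05). In Gnas-eKO it was 108, 87.5 and 83.5 CPM in Con and 43.9, 83.6, 25.3 and 27.3 CPM in BCC (log2 fold change -1.04, SE 0.38, edgeR adjusted p = 0.189). PKI values were 95.1, 107 and 98.3 CPM in Con and 88.1, 86.4, 111 and 101 CPM in BCC (log2 fold change -0.04, SE 0.10, edgeR adjusted p = 0.764). SmoM2 BCC lay wholly below Con, and Gnas-eKO BCC replicate 2 was the member of its group that reached the Con range, without which the adjusted p was 0.00602. The PKI effect on Fzd10 differed from that in SmoM2 (1.10, SE 0.13, edgeR adjusted p = 7.9e-05).

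Fzd6 measured 178, 168 and 164 CPM in Con and 131, 142, 132 and 128 CPM in BCC in SmoM2 (log2 fold change -0.34, SE 0.06, edgeR adjusted p = 0.00277). Its Gnas-eKO libraries gave 190, 174 and 170 CPM in Con and 134, 150, 120 and 122 CPM in BCC (log2 fold change -0.43, SE 0.12, edgeR adjusted p = 0.107), and leaving out BCC replicate 2 gave a call, with -0.49, SE 0.12 and edgeR adjusted p = 0.0343. PKI libraries gave 166, 165 and 150 CPM in Con and 153, 168, 150 and 175 CPM in BCC (log2 fold change 0.02, SE 0.08, edgeR adjusted p = 0.841). The fall in SmoM2 was small beside that of Fzd10, and the PKI effect differed from it (0.36, SE 0.10, edgeR adjusted p = 0.0142). Exons of Fzd6 overlap those of Gm26704 on the other strand. Of the remaining Frizzleds, Fzd4 at 2.2 to 5.25 CPM and Fzd8 at 7.34 to 15.3 CPM were called in no model.

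Ror2, a receptor of Wnt5a, was 17.5, 17.6 and 25.7 CPM in Con and 31.3, 31.5, 29.2 and 33.4 CPM in BCC in SmoM2 (log2 fold change 0.65, SE 0.14, edgeR adjusted p = 0.00671). In Gnas-eKO it was 19.5, 19.6 and 21.9 CPM in Con and 26, 35.6, 15 and 27.9 CPM in BCC (log2 fold change 0.37, SE 0.25, edgeR adjusted p = 0.469). Its PKI libraries gave 21.8, 14.3 and 14.1 CPM in Con and 13.2, 15.9, 16.4 and 16.3 CPM in BCC (log2 fold change -0.11, SE 0.17, edgeR adjusted p = 0.658). It was thus higher in SmoM2, while its ligand Wnt5a rose in PKI. The difference between PKI and SmoM2 effects on Ror2 (-0.75, SE 0.23, edgeR adjusted p = 0.027) was lost without SmoM2 Con replicate 1 or 2 or PKI Con replicate 1, with adjusted p up to 0.0862. Of the co-receptors, Lrp5 was slightly lower in SmoM2, from 165 to 179 CPM in Con to 134 to 152 CPM in BCC (log2 fold change -0.24, SE 0.07, edgeR adjusted p = 0.0209). That call was lost without Con replicate 1 or 2 or BCC replicate 1 or 2, with adjusted p up to 0.0666, and in the joint fit with 0.131, and Lrp6 and Ryk were called in no model with all libraries. Lrp6 was called higher in SmoM2 without BCC replicate 4, with an edgeR adjusted p of 0.0492 beside 0.0576 with it.

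Lgr4, Lgr5 and Lgr6 bind R-spondins and so keep Frizzled receptors at the cell surface, and Lgr5 marks stem cells of the hair follicle. Lgr5 was 11.6, 11.8 and 18.2 CPM in Con and 120, 93.1, 118 and 106 CPM in BCC in SmoM2 (log2 fold change 2.99, SE 0.18, edgeR adjusted p = 1.12e-05). In Gnas-eKO it measured 13.4, 15.3 and 16.8 CPM in Con and 126, 38.2, 125 and 149 CPM in BCC (log2 fold change 2.87, SE 0.43, edgeR adjusted p = 0.0263). PKI gave 19.9, 16.4 and 14.8 CPM in Con and 24.7, 18.1, 23.9 and 28.3 CPM in BCC (log2 fold change 0.49, SE 0.16, edgeR adjusted p = 0.0389). All BCC libraries lay above Con in SmoM2 and Gnas-eKO, where BCC replicate 2 was the lowest, and the PKI groups overlapped. Its rise in PKI was smaller than in SmoM2 (-2.50, SE 0.25, edgeR adjusted p = 2.55e-05) and in Gnas-eKO (-2.37, SE 0.48, edgeR adjusted p = 0.0107).

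The Gnas-eKO call of Lgr5 was lost without any 1 replicate other than BCC replicate 2, with adjusted p up to 0.16, and without BCC replicate 2 the adjusted p was 0.000196. In PKI the call of Lgr5 was lost without Con replicate 2 or 3 or BCC replicate 1, 3 or 4, with adjusted p up to 0.14, and in the joint fit, with 0.266.

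Lgr4 was 119, 111 and 136 CPM in Con and 336, 371, 359 and 361 CPM in BCC in SmoM2 (log2 fold change 1.56, SE 0.08, edgeR adjusted p = 1.74e-06). Gnas-eKO libraries held 109, 140 and 111 CPM in Con and 409, 181, 236 and 285 CPM in BCC (log2 fold change 1.22, SE 0.27, edgeR adjusted p = 0.0629). PKI libraries held 130, 142 and 127 CPM in Con and 208, 196, 186 and 212 CPM in BCC (log2 fold change 0.60, SE 0.08, edgeR adjusted p = 0.000683). BCC was above Con in each model without overlap, and the PKI effect was smaller than the SmoM2 effect (-0.96, SE 0.11, edgeR adjusted p = 4.63e-05). Without Gnas-eKO BCC replicate 2 its adjusted p in that model was 0.00787. Lgr6, at 28.4 to 149 CPM over all libraries, was called in no model by the edgeR fit of each model with all libraries. In Gnas-eKO its log2 fold change was 1.07 with an edgeR adjusted p of 0.0935, and it was called higher by DESeq2 (0.00576), in the joint fit (0.0119) and without BCC replicate 2 (0.00478). In SmoM2 it was 0.28 with 0.152, and it was called higher with sex as a covariate (0.0472) or without BCC replicate 2 (0.0377). Among the R-spondins that these receptors bind, Rspo1, Rspo3 and Rspo4 had group means of at most 0.547 CPM.

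**Figure D3:**
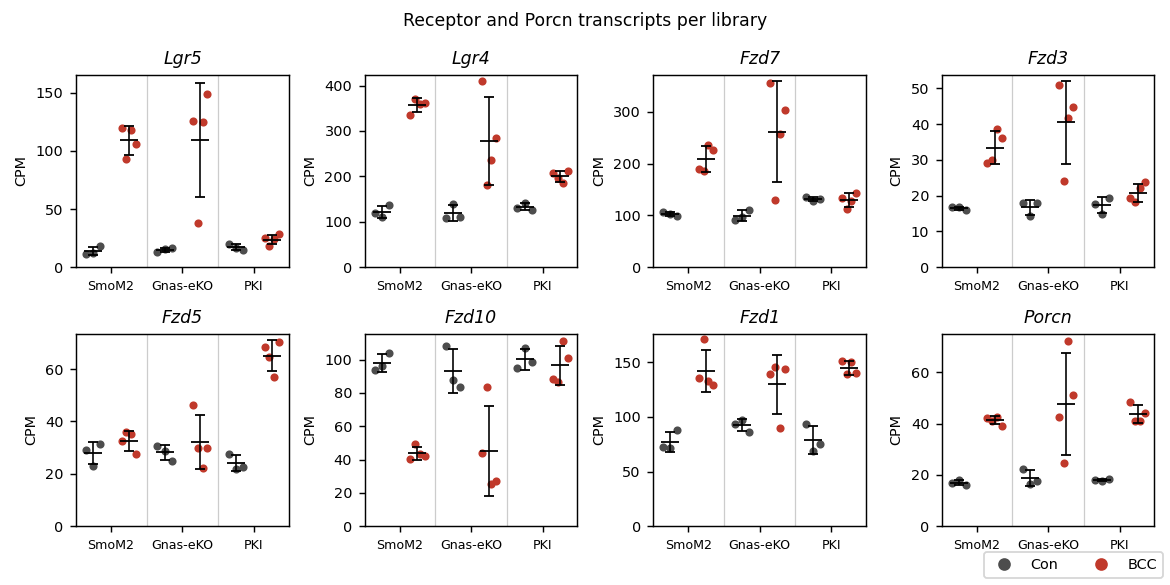
CPM of 7 receptors and Porcn in each library, Con in grey and BCC in red, with the mean and SD of each group in black and each axis from 0. Lgr5 reaches 93.1 to 120 CPM in SmoM2 BCC and 18.1 to 28.3 CPM in PKI BCC, Fzd5 is higher in PKI BCC, and Fzd10 is lower in SmoM2 BCC.

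Ctnnb1, the gene of beta-catenin, had the highest level per length of all members in control epidermis, with a median of 140 CPM per kilobase. It was 803, 795 and 739 CPM in Con and 1100, 1120, 1310 and 1230 CPM in BCC in SmoM2 (log2 fold change 0.63, SE 0.08, edgeR adjusted p = 0.00032). In PKI it was 718, 727 and 726 CPM in Con and 1030, 970, 988 and 995 CPM in BCC (log2 fold change 0.47, SE 0.06, edgeR adjusted p = 0.000916). Gnas-eKO gave 708, 710 and 752 CPM in Con and 1300, 827, 936 and 1260 CPM in BCC (log2 fold change 0.59, SE 0.20, edgeR adjusted p = 0.156). BCC lay above Con in every library of each model, and without Gnas-eKO BCC replicate 2 the adjusted p there was 0.0444. Its exons overlap those of Ulk4 on the other strand. Apc and Axin1, parts of the complex that destroys beta-catenin, were called in no model with all libraries, at 90.8 to 171 CPM and 63.6 to 115 CPM. Axin1 was called higher in SmoM2 without Con replicate 3, with an edgeR adjusted p of 0.0372 beside 0.255 with it.

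Lef1, a TCF/LEF factor of hair follicle cells, had one of the lowest levels per length in control epidermis and its highest levels in PKI BCC. In PKI it measured 5.37, 1.77 and 2.58 CPM in Con and 27, 31, 27.4 and 24.7 CPM in BCC (log2 fold change 3.07, SE 0.32, edgeR adjusted p = 0.000422). SmoM2 gave 1.29, 3.56 and 6.06 CPM in Con and 7.55, 11.5, 10.8 and 8.61 CPM in BCC (log2 fold change 1.43, SE 0.44, edgeR adjusted p = 0.0448). In Gnas-eKO it was 5.73, 2.57 and 5.21 CPM in Con and 12.3, 7.61, 8.56 and 9.96 CPM in BCC (log2 fold change 1.10, SE 0.31, edgeR adjusted p = 0.108). Its Gnas-eKO value was 1.20 without BCC replicate 2, with an SE of 0.32 and an edgeR adjusted p of 0.0495, which passed the threshold. BCC lay above Con in each model. The SmoM2 call was lost without Con replicate 2 or any 1 of the BCC replicates, with adjusted p up to 0.127, and without a filter on low counts, with 0.0757. The PKI effect was larger than in Gnas-eKO (1.98, SE 0.46, edgeR adjusted p = 0.0179), a call lost without Gnas-eKO Con replicate 1 or PKI Con replicate 3 with adjusted p up to 0.0542, and the difference from SmoM2 did not pass the main test (1.64, SE 0.58, edgeR adjusted p = 0.0569). It passed by DESeq2 (0.0103), with sex as a covariate (0.0346), in the joint fit (0.0457), and without SmoM2 Con replicate 1 (0.00652) or PKI Con replicate 1 (0.0167). Hair follicle markers, 7 of 9 of which were called higher in PKI, summed to 2590 to 3110 CPM in PKI Con and 5140 to 8400 CPM in PKI BCC, and 7 of 9 leukocyte markers were also called higher there. Among the hair follicle markers, Krt71, a keratin, ranged from 5.75 to 66.4 CPM in PKI Con and from 499 to 733 CPM in PKI BCC, while in SmoM2 it was 39.9 to 100 CPM in Con and 6.37 to 56.3 CPM in BCC, and Foxn1, a transcription factor, was 42.8 to 72.8 CPM in PKI Con and 35.4 to 44.8 CPM in PKI BCC. The part of these markers in the change of Lef1 was not tested.

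The other 3 factors rose in SmoM2. Tcf7 was 23.6, 19.8 and 27.7 CPM in Con and 43.6, 47.4, 53 and 52.8 CPM in BCC there (log2 fold change 1.07, SE 0.12, edgeR adjusted p = 0.000197). Its PKI levels were 21.2, 19 and 18.6 CPM in Con and 24.3, 24.5, 28 and 23.6 CPM in BCC (log2 fold change 0.37, SE 0.10, edgeR adjusted p = 0.0169). Gnas-eKO levels were 24.1, 28.4 and 21.3 CPM in Con and 57.4, 43.7, 23 and 51.1 CPM in BCC (log2 fold change 0.84, SE 0.29, edgeR adjusted p = 0.159). BCC was above Con in SmoM2 and PKI, and in Gnas-eKO BCC replicate 3 fell among Con. The rise was smaller in PKI than in SmoM2 (-0.70, SE 0.16, edgeR adjusted p = 0.00569), and the PKI call was lost without Con replicate 2 or 3, with adjusted p up to 0.0663, and in the joint fit, with 0.208.

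Tcf7l1, known as a repressor of Wnt targets in follicle stem cells, was 17.9, 15.8 and 14.8 CPM in Con and 34, 26.6, 32.1 and 31.9 CPM in BCC in SmoM2 (log2 fold change 0.96, SE 0.11, edgeR adjusted p = 0.000212). In PKI its level was 19.7, 18.5 and 18.8 CPM in Con and 22.2, 21.3, 15.2 and 20.1 CPM in BCC (log2 fold change 0.06, SE 0.14, edgeR adjusted p = 0.753). Gnas-eKO gave 16.1, 17.9 and 17.1 CPM in Con and 41.7, 19.6, 14.1 and 29.1 CPM in BCC (log2 fold change 0.63, SE 0.33, edgeR adjusted p = 0.34). Groups overlapped in PKI and Gnas-eKO, and the PKI effect was smaller than that in SmoM2 (-0.90, SE 0.18, edgeR adjusted p = 0.00252). Exons of Tcf7l1 overlap those of Gm15401 on the other strand.

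Tcf7l2 was 20.5, 22.8 and 15.8 CPM in Con and 28.8, 29.1, 32.4 and 28.9 CPM in BCC in SmoM2 (log2 fold change 0.61, SE 0.12, edgeR adjusted p = 0.0051). PKI held 22.6, 20.5 and 23.3 CPM in Con and 25.3, 21.8, 22.1 and 21.9 CPM in BCC (log2 fold change 0.05, SE 0.10, edgeR adjusted p = 0.7). In Gnas-eKO it was 19.2, 21.9 and 21.4 CPM in Con and 32.3, 22.5, 31.4 and 37.6 CPM in BCC (log2 fold change 0.58, SE 0.18, edgeR adjusted p = 0.128). BCC and Con overlapped in PKI but not in SmoM2 or Gnas-eKO. The PKI and SmoM2 effects differed (-0.55, SE 0.16, edgeR adjusted p = 0.0195), a call lost without PKI Con replicate 3 with an adjusted p of 0.0514. Without Gnas-eKO BCC replicate 2, the adjusted p in that model was 0.0135.

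Extracellular inhibitors bind Wnts or their receptors, and Wif1 and Apcdd1 were higher in SmoM2 while Sfrp1 was lower in SmoM2 and PKI. Wif1, which binds Wnt ligands, was 3.72, 3.44 and 4.98 CPM in Con and 27.4, 21.4, 26.8 and 18.8 CPM in BCC in SmoM2 (log2 fold change 2.56, SE 0.19, edgeR adjusted p = 1.25e-05). Gnas-eKO libraries held 3.7, 5.25 and 7.77 CPM in Con and 11.6, 3.81, 52.9 and 8.17 CPM in BCC (log2 fold change 1.79, SE 0.84, edgeR adjusted p = 0.284). In PKI it was 7.8, 4.55 and 4.68 CPM in Con and 6.06, 3.2, 1.78 and 2.8 CPM in BCC (log2 fold change -0.71, SE 0.39, edgeR adjusted p = 0.193). SmoM2 BCC lay wholly above Con, Gnas-eKO BCC varied from the Con level to 52.9 CPM in replicate 3, and PKI groups overlapped. The PKI effect differed from the SmoM2 effect (-3.27, SE 0.47, edgeR adjusted p = 0.000359).

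Sfrp1, another secreted Wnt binder, was 128, 141 and 139 CPM in Con and 86.9, 91.9, 108 and 107 CPM in BCC in SmoM2 (log2 fold change -0.45, SE 0.09, edgeR adjusted p = 0.00443). PKI gave 191, 163 and 174 CPM in Con and 134, 99.9, 99.7 and 71.3 CPM in BCC (log2 fold change -0.79, SE 0.18, edgeR adjusted p = 0.0115). In Gnas-eKO its levels were 135, 154 and 137 CPM in Con and 190, 125, 56.6 and 98.5 CPM in BCC (log2 fold change -0.26, SE 0.34, edgeR adjusted p = 0.73). It was lower in every BCC library of SmoM2 and PKI, and Gnas-eKO BCC spread on both sides of Con. The joint fit gave an adjusted p of 0.226 for Sfrp1 in SmoM2. Sfrp2 and Notum, at most 5.26 and 3.13 CPM, were called in no model with all libraries. For Sfrp2 in Gnas-eKO the log2 fold change was 1.44, SE 0.62 and edgeR adjusted p = 0.243, and without BCC replicate 2 it was 1.78, SE 0.37 and edgeR adjusted p = 0.0211.

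Dkk3, a member of the Dickkopf family, was lower in PKI, where it measured 85.2, 84.2 and 86.7 CPM in Con and 51.3, 46.5, 49.8 and 42.4 CPM in BCC (log2 fold change -0.83, SE 0.08, edgeR adjusted p = 0.000216). In SmoM2 it was 84.7, 69 and 80.8 CPM in Con and 78.3, 90, 96.8 and 86.1 CPM in BCC (log2 fold change 0.18, SE 0.09, edgeR adjusted p = 0.178). Gnas-eKO gave 78.3, 90.8 and 90 CPM in Con and 133, 90.4, 57.1 and 93.4 CPM in BCC (log2 fold change 0.12, SE 0.25, edgeR adjusted p = 0.824). PKI BCC lay wholly below Con, while the groups overlapped in the other models. That effect was below the one in SmoM2 (-1.02, SE 0.13, edgeR adjusted p = 0.000104).

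Apcdd1, a membrane inhibitor of Wnt signalling in hair follicles, was 62, 65.2 and 49.5 CPM in Con and 76, 76.7, 99.3 and 92.3 CPM in BCC in SmoM2 (log2 fold change 0.56, SE 0.13, edgeR adjusted p = 0.00877). In PKI it was 87.7, 93.6 and 107 CPM in Con and 69.3, 76.1, 83.6 and 82.9 CPM in BCC (log2 fold change -0.29, SE 0.10, edgeR adjusted p = 0.046). Gnas-eKO gave 49.9, 42.2 and 58.9 CPM in Con and 71, 56, 72.3 and 86.6 CPM in BCC (log2 fold change 0.52, SE 0.17, edgeR adjusted p = 0.154). With BCC replicate 2 of Gnas-eKO left out, Apcdd1 was called higher there, at 0.62 with an SE of 0.16 and an edgeR adjusted p of 0.0414. It was the member with opposite calls, higher in SmoM2 BCC and lower in PKI BCC, and the effects differed (-0.85, SE 0.17, edgeR adjusted p = 0.00238). The PKI call was lost without Con replicate 2 or 3 or BCC replicate 1 or 2, with adjusted p up to 0.181, and in the joint fit, with 0.124.

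Axin2, a widely used target gene of beta-catenin signalling, was lower in BCC of SmoM2 and PKI, where Ctnnb1, Lef1 and Tcf7 were higher. In SmoM2 it was 65.5, 48.3 and 58.4 CPM in Con and 34.4, 31.9, 45.7 and 42 CPM in BCC (log2 fold change -0.56, SE 0.14, edgeR adjusted p = 0.0167). In PKI, Axin2 was 76.2, 84 and 58.7 CPM in Con and 25.2, 27.6, 33.6 and 46.3 CPM in BCC (log2 fold change -1.13, SE 0.21, edgeR adjusted p = 0.00525). Gnas-eKO gave 46.2, 51.1 and 55.4 CPM in Con and 38.5, 50.2, 44.8 and 46.5 CPM in BCC (log2 fold change -0.17, SE 0.12, edgeR adjusted p = 0.5). BCC lay below Con in SmoM2 and PKI and overlapped with it in Gnas-eKO. The SmoM2 call was lost without Con replicate 1 or 3, with adjusted p up to 0.0552. Exons of Axin2 overlap those of Gm11670 on the other strand.

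Of the other targets and brakes, Znrf3 and Rnf43 encode enzymes that remove Frizzled receptors from the surface. Znrf3 was 46.9, 41.4 and 54.4 CPM in Con and 59, 65.4, 68.1 and 69.8 CPM in BCC in SmoM2 (log2 fold change 0.48, SE 0.10, edgeR adjusted p = 0.0064). The PKI levels were 44.7, 39.9 and 39.2 CPM in Con and 42, 36.4, 41 and 46.1 CPM in BCC (log2 fold change 0.02, SE 0.10, edgeR adjusted p = 0.912). Gnas-eKO gave 47, 42.8 and 41.5 CPM in Con and 53.3, 48.3, 46.6 and 49.2 CPM in BCC (log2 fold change 0.18, SE 0.11, edgeR adjusted p = 0.381). BCC was above Con in SmoM2 and overlapped with it in the other models. The difference between PKI and SmoM2 effects (-0.46, SE 0.15, edgeR adjusted p = 0.032) was lost without SmoM2 Con replicate 1 or 2, SmoM2 BCC replicate 3 or 4, PKI Con replicate 1 or PKI BCC replicate 2, with adjusted p up to 0.085.

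Rnf43 was lower in PKI, from 43.9 to 56.2 CPM in Con to 29.8 to 38.7 CPM in BCC (log2 fold change -0.44, SE 0.12, edgeR adjusted p = 0.0196), a call lost without Con replicate 1 with an adjusted p of 0.0776. Nkd1 and Nkd2, which hold back the signal inside the cell, were called in no model by edgeR with all libraries. In SmoM2, Nkd2 had a log2 fold change of -1.41 with an edgeR adjusted p of 0.118, which was 0.0497 without Con replicate 1 and 0.0175 by DESeq2, both calls lower. Its PKI value of 1.11, with an edgeR adjusted p of 0.328, became a call higher without Con replicate 1, at 3.10 with 7.19e-05. Nkd2 varied widely among PKI controls, at 13.1, 1.33 and 1.32 CPM in Con and 10.3, 10.4, 13.3 and 11.5 CPM in BCC. The first Con library lay at the level of BCC and the other 2 lay far below it.

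**Figure D4:**
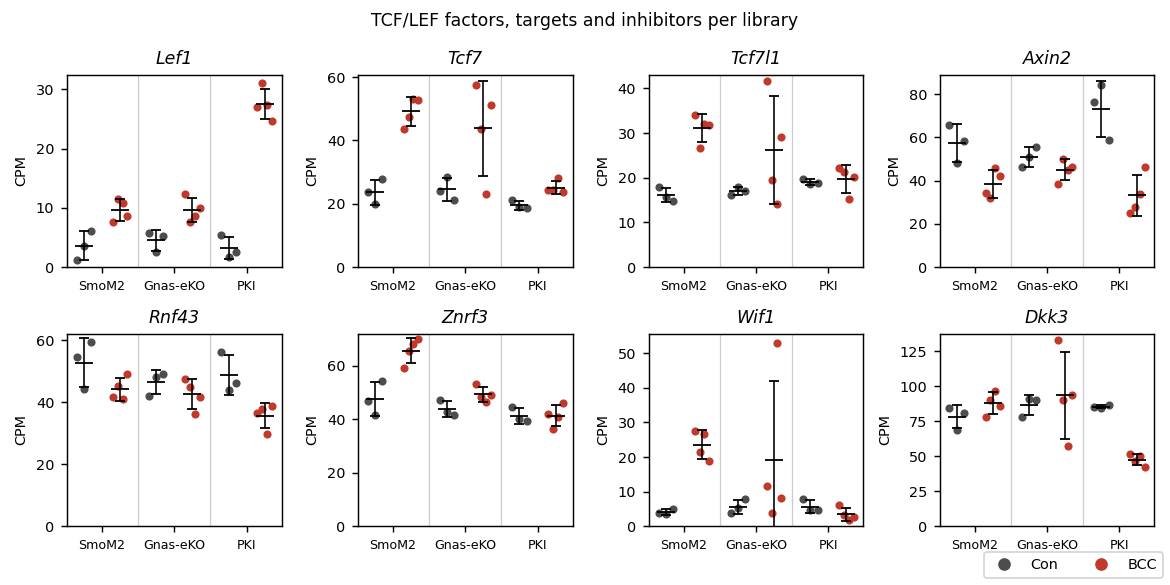
CPM of 3 TCF/LEF factors, 3 target and feedback genes and 2 inhibitors in each library, Con in grey and BCC in red, with the mean and SD of each group in black; axes start at 0, where the SD bar of Wif1 in Gnas-eKO BCC ends. Lef1 is at 24.7 to 31.0 CPM in PKI BCC and at most 12.3 CPM elsewhere, and Axin2 is lower in BCC of SmoM2 and PKI.

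The models were then compared in how BCC differed from Con, by a contrast of the effects over 14 libraries. Between PKI and SmoM2, 21 of 46 members differed, which is 45.7% where 24.9% of 17261 genes tested did. The effect was higher in PKI for 7, beside 12.6% of all genes, and lower for 14, beside 12.3%. The 7 were Wnt4, Wnt5a, Wnt10a, Wnt11, Fzd5, Fzd6 and Fzd10. The 14 were Wnt6, Wnt7b, Fzd3, Fzd7, Ror2, Lgr4, Lgr5, Tcf7, Tcf7l1, Tcf7l2, Wif1, Dkk3, Apcdd1 and Znrf3. Of the higher ones, Wnt4, Wnt10a, Fzd6 and Fzd10 had been lower in SmoM2 BCC and had PKI log2 fold changes between -0.22 and 0.02. The joint fit ended 7 of the 21 calls, those of Wnt10a, Fzd3, Fzd10, Ror2, Tcf7, Tcf7l1 and Tcf7l2, with adjusted p from 0.0511 to 0.105.

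Between PKI and Gnas-eKO, 12 members differed, 5 higher and 7 lower in PKI, which is 26.1% beside 9.06% of 17254 genes, 4.49% higher and 4.57% lower. Both comparisons share the PKI libraries. Besides those given above, Wnt7b (-1.13, SE 0.24, edgeR adjusted p = 0.0135), Wnt10a (0.67, SE 0.19, edgeR adjusted p = 0.0401), Fzd3 (-1.01, SE 0.29, edgeR adjusted p = 0.0424), Dkk3 (-0.96, SE 0.28, edgeR adjusted p = 0.0456), Apcdd1 (-0.80, SE 0.20, edgeR adjusted p = 0.0264) and Axin2 (-0.96, SE 0.25, edgeR adjusted p = 0.0326) differed. The count went from 5 to 18 when 1 library was left out, being 5 without Gnas-eKO Con replicate 1 or 2, 6 without PKI Con replicate 3, 7 without PKI Con replicate 2 or PKI BCC replicate 1 or 2, and 18 without Gnas-eKO BCC replicate 2. The shares of all genes were not computed for fits of this contrast that left out 1 library, so these counts do not show a change particular to the members. The call of Wnt7b held in all 14 such fits. That of Wnt10a held in the 4 without Gnas-eKO BCC replicate 2, 3 or 4 or PKI BCC replicate 4 and was lost in 10, with adjusted p up to 0.0965. That of Fzd3 held in the 3 without Gnas-eKO BCC replicate 2 or 3 or PKI BCC replicate 4, and that of Dkk3 in the 2 without Gnas-eKO BCC replicate 2 or 3, with adjusted p up to 0.116 for both. That of Apcdd1 was lost without Gnas-eKO Con replicate 1 or 2, PKI Con replicate 2 or 3 or PKI BCC replicate 1 or 2, with adjusted p up to 0.0804. That of Axin2 was lost without Gnas-eKO Con replicate 1 or 2, Gnas-eKO BCC replicate 4, PKI Con replicate 1 or 2 or PKI BCC replicate 1 or 2, with adjusted p up to 0.0887.

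Between Gnas-eKO and SmoM2, 0 members differed by edgeR, beside 0.175% of 17151 genes, 0.0758% higher and 0.0991% lower. There 4 had an unadjusted p under 0.05, beside 8.74% of all genes, and DESeq2 called 1 beside 1.24% of 17136 genes. It was Wnt11, whose effects were 0.95 in Gnas-eKO and -0.47 in SmoM2. The differences of effects over the 46 members ranged from -0.78 to 1.47, with a median of -0.03.

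**Figure D5:**
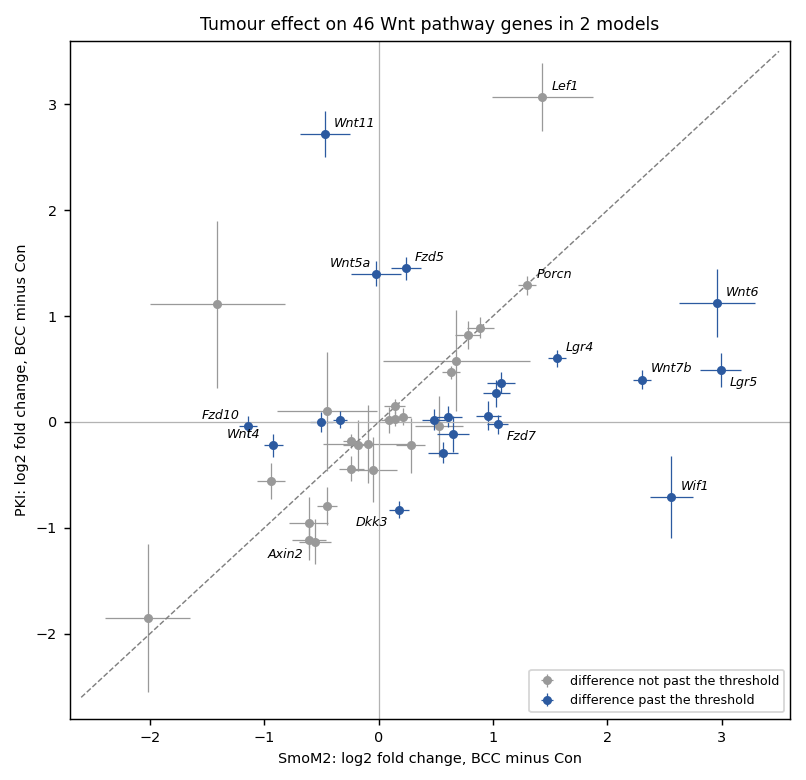
Log2 fold change of BCC against Con in PKI (vertical axis) against that in SmoM2 (horizontal axis) for 46 Wnt pathway genes, with SE bars; blue marks an adjusted p under 0.05 for the difference of effects, and the dashed line is equality. Wnt11, Wnt5a and Fzd5 lie above the line, and Lgr5, Wnt6, Wnt7b and Wif1 far below it.

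Other genes of the pathway, a list of 59 of which 52 were in the table, were described by the same fits. In SmoM2, 16 of 43 tested were higher and 10 lower, in Gnas-eKO 1 of 43 was higher and 0 lower by edgeR, and in PKI 5 of 41 were higher and 12 lower. For SmoM2 the share of the list called was 60.5% beside 29.7% of all genes tested, for PKI 41.5% beside 34.5%, and for Gnas-eKO 2.33% beside 1.63%. Sostdc1, a secreted inhibitor of Wnt and BMP signals, had group means of 111 CPM in SmoM2 Con and 382 CPM in BCC, with a log2 fold change of 1.79, SE 0.13 and edgeR adjusted p = 1.71e-05. It also rose in Gnas-eKO, by 1.31 on the log2 scale with an SE of 0.25 and an edgeR adjusted p of 0.0466, and the PKI value was 0.35 with an SE of 0.14 and an edgeR adjusted p of 0.0865. Ctnnbip1, which keeps beta-catenin from TCF factors, was lower in SmoM2, with a log2 fold change of -1.18, SE 0.16 and edgeR adjusted p = 0.00108, and in PKI, with -1.63, SE 0.14 and edgeR adjusted p = 0.000148.

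Wnt3a, a ligand, had group means of 9.71 CPM in SmoM2 Con and 4.60 CPM in BCC, and of 12.9 and 5.91 CPM in PKI, with log2 fold changes of -1.06 and -1.11 and edgeR adjusted p of 0.00282 and 0.00636. Lrp4, Dkkl1, Dvl1, Daam1 and Celsr1 were also lower in both models. Going the other way, Csnk1e, Tnks2, Fbxw11, Tle3 and Vangl1 lay above Con without overlap in BCC of both. Group means of Csnk1e were 50.3 CPM in SmoM2 Con and 65.5 CPM in BCC, and 47.4 and 73.9 CPM in PKI. Wls, which carries Wnt proteins to the cell surface, was called in no model, with group means of 163 to 192 CPM. Wnt2 had 0 counts in all 9 Con libraries and 0.504 to 1.99 CPM in SmoM2 BCC.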

How the data were processed

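RNA selected by polyA was made into libraries with a stranded kit, per the labels' protocols. The submitters' processing notes name bcl2fastq 2.20, cutadapt 1.18, STAR 2.7.0f, Partek and mm10. Whether counting used the strand is not given in the sources used here. The authors deposited estimated counts per gene, of which 33.1% are not whole, and a normalized signal table whose lowest value is 0.001, used here only to check the columns. No gene in the table had a summed count under 10.

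Counts were rounded, filtered (filterByExpr) and scaled by TMM in edgeR 4.0.16 (R 4.3.3, limma 3.58.1). BCC was tested against Con within each model by the quasi-likelihood test, with robust dispersion and Benjamini-Hochberg adjustment over all genes tested and a threshold of 0.05. Differences between models were contrasts of both effects over their 14 libraries. Reported CPM used TMM over 21 libraries, and exon lengths came from GENCODE M21, where 46 members matched by name, chromosome and start. The code was tested on simulated data. Alternatives were DESeq2 1.42.0 size factors and its Wald test, no filter, a replicate block, sex (read from Xist and Y-linked counts), a joint fit of 21 libraries and leaving out each library.

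Members and lists were chosen with earlier results of these data known. Members called in a model or contrast are given with their tests, and those called in at least 2 models or in a contrast with every library.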

Additional observations from a re-analysis of the deposited data

Results flagged for a closer look

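In 138 groups of 4 BCC libraries, 46 genes in each of 3 models, 10 had 1 library apart from the others by Dixon's test. Chance flags about 1 in 20 groups. In Gnas-eKO BCC, replicate 2 stood at 153 CPM for Wnt4, where the others lay between 80.8 and 87.2. Replicate 3 of that group stood at 89.9 CPM for Fzd1, below 139 to 146, at 92.2 CPM for Lrp5, below 142 to 150, and at 52.9 CPM for Wif1, above 3.81 to 11.6. In SmoM2 BCC, replicate 2 stood at 171 CPM for Fzd1, above 129 to 136, and replicate 3 at 0.648 CPM for Wnt7a, above 0.362 to 0.403, and at 32.4 CPM for Tcf7l2, above 28.8 to 29.1. In PKI BCC, replicate 1 stood at 2.36 CPM for Wnt16, below 5.83 to 6.05, at 13.2 CPM for Ror2, below 15.9 to 16.4, and at 25.3 CPM for Tcf7l2, above 21.8 to 22.1.

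Differences between models in the effect of BCC passed the edgeR test of the difference for 21 genes between PKI and SmoM2. The log2 effect in PKI minus that in SmoM2 was 0.70 for Wnt4, 1.43 for Wnt5a, 0.50 for Wnt10a, 3.19 for Wnt11, 1.21 for Fzd5, 0.36 for Fzd6 and 1.10 for Fzd10. It was -1.85 for Wnt6, -1.90 for Wnt7b, -0.76 for Fzd3, -1.06 for Fzd7, -0.75 for Ror2, -0.96 for Lgr4 and -2.50 for Lgr5. Among factors and inhibitors it was -0.70 for Tcf7, -0.90 for Tcf7l1, -0.55 for Tcf7l2, -3.27 for Wif1, -1.02 for Dkk3, -0.85 for Apcdd1 and -0.46 for Znrf3.

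Between PKI and Gnas-eKO, 12 genes passed. The log2 effect in PKI minus that in Gnas-eKO was 1.10 for Wnt5a, 0.67 for Wnt10a, 1.77 for Wnt11, 1.25 for Fzd5 and 1.98 for Lef1. It was -1.13 for Wnt7b, -1.01 for Fzd3, -1.42 for Fzd7, -2.37 for Lgr5, -0.96 for Dkk3, -0.80 for Apcdd1 and -0.96 for Axin2. Model, day and batch cannot be told apart in either comparison.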

How the results depend on the processing

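No called gene changed direction under any alternative. With DESeq2 size factors and with the DESeq2 Wald test, every edgeR call of the 46 genes held, and without a filter the calls of Lef1 in SmoM2 and Apcdd1 in PKI were lost. The Wald test called 11 genes higher and 4 lower in Gnas-eKO, 1 difference between Gnas-eKO and SmoM2, and 9 genes in the same direction in all 3 models, whose shares over all genes stand in the report. With sex as a covariate, 2 genes were higher in Gnas-eKO. The joint fit called 15 higher and 5 lower in Gnas-eKO, 7 lower in SmoM2 and 6 in all 3 models, and it lost 5 PKI calls, among them Wnt7b and Lgr5, and 4 in SmoM2. For calls lost by leaving out 1 library or by a joint fit, the cause was not tested. Leaving out 1 library gave 17 to 19 higher and 9 to 11 lower genes in SmoM2, 10 to 14 higher and 6 to 9 lower in PKI, and for Gnas-eKO 0 to 14 higher and 0 to 5 lower. Except for Gnas-eKO without BCC replicate 2, shares of all genes were not computed for fits that left out 1 library or added sex. Calls gained by leaving out 1 library, beside those in the report, were of Rnf43 (lower) in SmoM2 without Con replicate 2, Fzd1 and Tcf7 (higher) in Gnas-eKO without BCC replicate 3, and in PKI Wif1 (lower) without BCC replicate 1 and Wnt7a (lower) without Con replicate 3 or BCC replicate 4. Sex as a covariate also gave Wif1 and Wnt4 as lower in PKI, and DESeq2 and the replicate block gave Wnt7a. Between PKI and SmoM2, Sfrp1 was gained without PKI BCC replicate 1, Axin2 without PKI BCC replicate 4 and Nkd2 without PKI Con replicate 1. Between PKI and Gnas-eKO, DESeq2 and the joint fit also called Fzd6 and Lgr6, and the joint fit Wnt4. That contrast gained Wnt4, Fzd6, Fzd10, Lgr4, Lgr6 and Tcf7l2 without Gnas-eKO BCC replicate 2, Fzd6 and Tcf7 without Gnas-eKO BCC replicate 3, and Lgr6 and Nkd2 without PKI Con replicate 1. With 1 library left out, differences numbered 19 to 22 between PKI and SmoM2 and 5 to 18 between PKI and Gnas-eKO, and 0 to 9 genes were called in all 3 models.

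Whether the replicate numbers shared by Con and BCC pair the libraries is not known. Correlations of same-numbered deviations were -0.07, -0.13 and -0.10 for SmoM2, 0.04, 0.18 and 0.10 for Gnas-eKO and 0.27, -0.05 and 0.19 for PKI. They were not compared with those of other pairs and cannot decide it. With the replicate block, 17 genes were higher and 8 lower in SmoM2, 2 were higher in Gnas-eKO, 13 were higher and 9 lower in PKI, and PKI differed from SmoM2 for 17 and from Gnas-eKO for 7. Shares of all genes were not computed for it. The block ended the calls of Apcdd1, Lrp5, Wnt10b and Wnt5b in SmoM2 and of Fzd3 and Lgr5 in Gnas-eKO. It also ended the differences of Wnt6, Fzd6, Ror2 and Tcf7l2 between PKI and SmoM2, and of Wnt5a, Wnt7b, Wnt10a, Fzd7 and Dkk3 between PKI and Gnas-eKO.

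Depth did not keep any of the 46 genes from being tested. With 3 Con and 4 BCC libraries a model and wide spread in Gnas-eKO BCC, a missed threshold there does not show that a gene was the same in both groups. The log2 effects of single models are those of whole keratinocyte preparations, and their markers of other cells are given in the report.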

Other observations

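Some control libraries differed from others of their group in the same genes. SmoM2 Con replicate 3 measured 15.3 CPM for Nkd2, where the other 2 measured 3.08 and 4.13, and PKI Con replicate 1 measured 13.1 CPM, where the others measured 1.33 and 1.32. The same libraries were the highest of their groups for Lef1, at 6.06 and 5.37 CPM, and for Wnt6, at 6.60 and 6.99 CPM. These libraries were chosen after their values were seen.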
